A study of Mus musculus with 21 samples.

Results

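The 9 genes described here encode proteins of the basement membrane and the integrin chain that binds them, and were taken by symbol from a table of 45706 mouse genes. They are the collagen IV chains Col4a1, Col4a2 and Col4a5, the laminin chains Lama3, Lama5 and Lamb3, the linker nidogen (Nid1), the integrin ligand nephronectin (Npnt) and integrin alpha 3 (Itga3). All 9 were present. RNA-seq had been run on Myc-CaP, a mouse prostate cancer cell line that carries a MYC transgene under a prostate promoter, both in culture and as tumours in FVB mice, the immune-competent strain of its origin. The wild type (WT) was 1 line. The knockout (KO) comprised 3 lines, called KO1, KO2 and KO3, in which CRISPR-Cas9 with a single guide had targeted Ern1, the gene of the endoplasmic reticulum stress sensor IRE1α. Whether each line is 1 clone is not stated in the sources used. There were 2 libraries of each line in culture and, in tumours, 4 WT and 3 of each KO line, so 8 libraries of cells and 13 of tumours. The WT arm has no second line, so that line and genotype cannot be told apart there, and a tumour holds host tissue beside the cancer cells. The mice's age is not given in the sources used here.

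A basement membrane is a thin sheet of extracellular matrix under epithelia and around vessels, muscle fibres and fat cells. Collagen IV chains assemble in threes into one network and laminins, each of an alpha, a beta and a gamma chain, into another, which nidogen links. Cells hold on to the sheet through integrins. Integrin alpha 3 pairs with integrin beta 1 and binds laminin-332, which holds the chains of Lama3 and Lamb3, and laminins with the alpha 5 chain, and nephronectin is a ligand of integrin alpha 8 beta 1. In the normal prostate the sheet surrounds the glands, and in a growing tumour vessels and fibroblasts of the host add to it.

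The genes were proposed with results of these data in view, and are taken as chosen by their levels in KO and WT cells. Low Col4a1 and Col4a2 in KO cells was known by then, and the rule states neither the measure nor a threshold. For the 9 genes the cell values below are therefore a description with no test. The difference between WT tumours and WT cells uses the same WT cell libraries and is described in the same way, as a fitted change with its standard error. For the 9 genes tests were made between tumours, across all genes. The tumours are separate libraries but come from the same lines, so these tests are not independent of how the genes were chosen. Where groups of libraries are said not to overlap, this describes the values. The share of all genes that separate in this way was not counted.

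The cell libraries held 18105538 to 25068254 counts each and the tumours 15994285 to 27497796. Levels are given as CPM, counts scaled to the size of the library. Ern1 mRNA was present in every library, at 118 and 133 CPM in WT cells and 171 to 196 CPM in KO cells. The gene Yam1 made up 24.0% of WT tumour 4, while its share elsewhere in tumours was 6.16% to 8.47%. WT tumour 1 had 5553 CPM summed over 10 skeletal muscle markers and 287 CPM over 8 neutrophil markers, against at most 1239 CPM and 8.89 CPM in the other tumours. Results that rest on these tumours are also given without both. Of the markers of prostate luminal epithelium, Krt8 was at 21.9 to 153 CPM and Hoxb13 at 25.8 to 34.9 CPM in cells. Krt18 and Cdh1 were under 1 CPM there, and Epcam had no counts in any cell library.

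Before the values, the start regions of the genes that the results turn on are shown. Col4a1 and Col4a2 lie head to head on chromosome 8 of GRCm38, Col4a1 from 11198423 to 11312826 on the minus strand and Col4a2 from 11312805 to 11449287 on the plus strand. Their first exons overlap by 22 bases, at chr8:11312805-11312826. This stretch is given because both genes start in it. It is read on the plus strand, and the capitals mark a GC box.

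Col4a1 and Col4a2 starts: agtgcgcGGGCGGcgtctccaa

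Npnt lies on chromosome 3, from 132881745 to 132950291 on the minus strand. The 250 bases before its outer start are given because Npnt was the gene among the 9 that passed the test between KO and WT tumours. No annotated exon overlaps chr3:132950292-132950541, which is read here 5′ to 3′ on the minus strand, with GC boxes and the CCACG match in capitals.

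Npnt upstream: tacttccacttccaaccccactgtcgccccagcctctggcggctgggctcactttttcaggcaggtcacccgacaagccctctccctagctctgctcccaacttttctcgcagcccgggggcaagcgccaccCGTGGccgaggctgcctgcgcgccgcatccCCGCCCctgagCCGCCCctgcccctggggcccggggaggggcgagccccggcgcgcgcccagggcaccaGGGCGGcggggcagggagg

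Sequences and start sites are RefSeq's, build GRCm38.p6, and 8 of the 9 genes matched, with 11 windows of 250 bases before to 50 after a start. Lama3 did not match. Both strands were searched for the GC box (GGGCGG), which was in 8 of the 11 windows and in 35.7% of 32851 mouse windows. The 11 windows are not independent. Those of Col4a1 and Col4a2 overlap and share a GC box, and Lamb3, Npnt and Itga3 have several windows each. CCACG, part of the endoplasmic reticulum stress element, was in 5 of the 11 windows and in 32.8% of all windows. The whole element (CCAAT, 9 bases of any kind, CCACG) was in none of the 11 and in 0.119% of all windows. In the stretch shown before Npnt, CCACG was found 1 time, on the opposite strand, and the GC box 3 times. CCACG, a part of the whole element, was searched on its own too, so the matches of these motifs can overlap. A match is a description of the letters and no binding site.

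**Figure D1:**
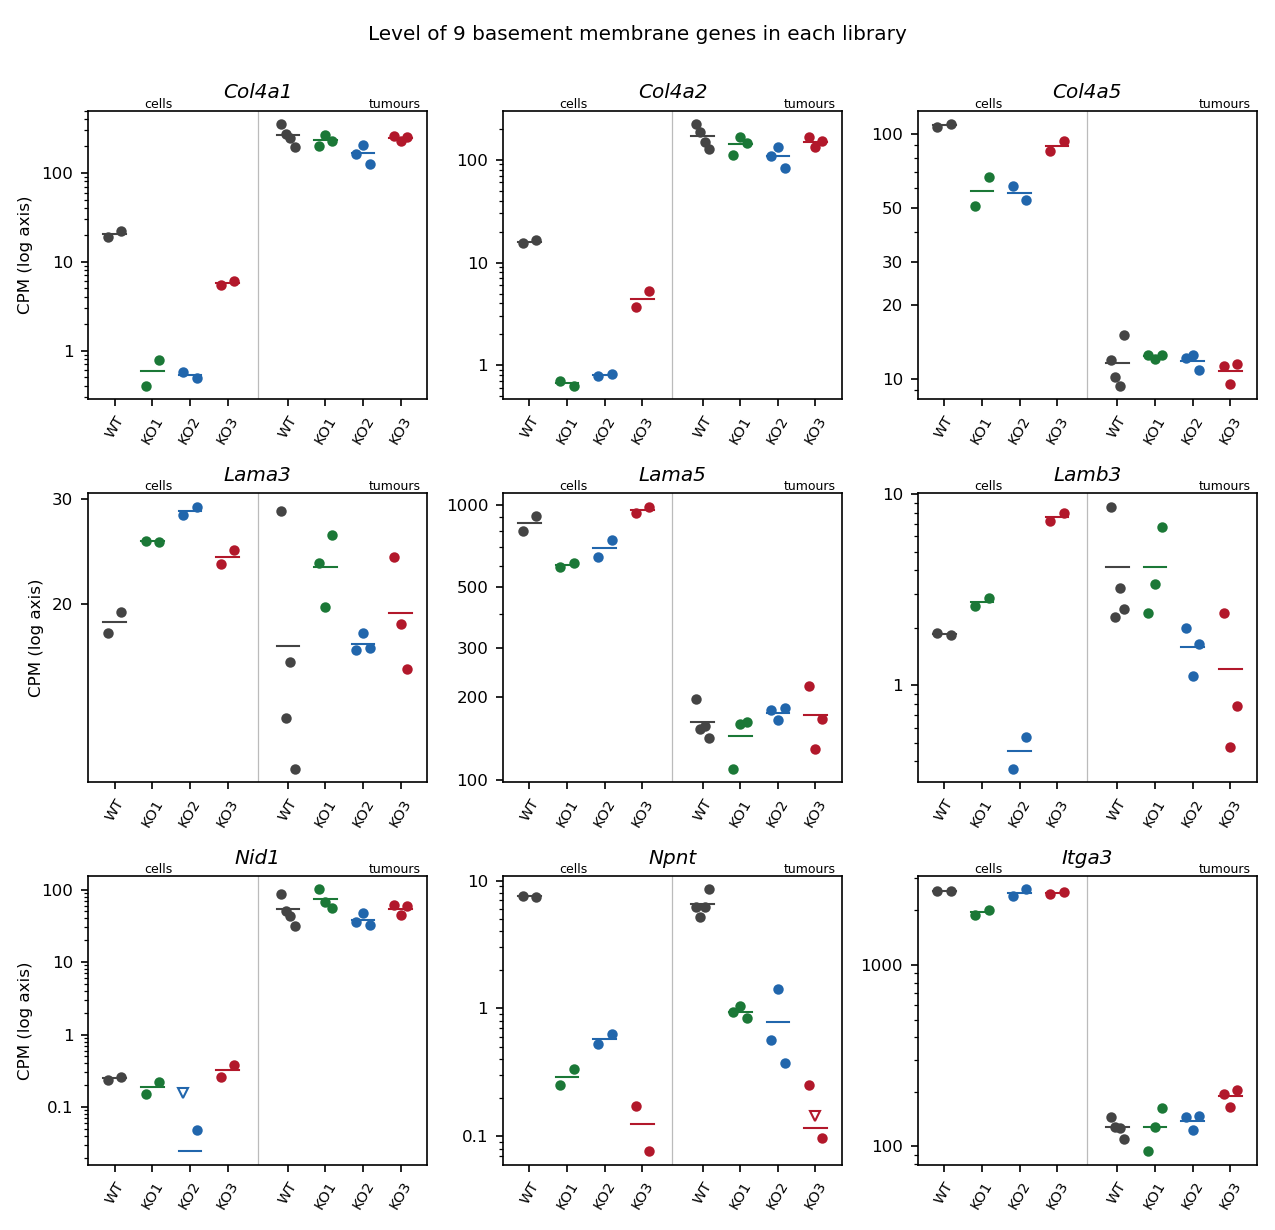
CPM of each gene (log axis) by line, in cells on the left of each panel and in tumours on the right. Points are libraries, lines are group means, and an open triangle is a library with no counts, drawn at the level of 3 counts. Col4a1, Col4a2, Col4a5 and Npnt are lower in every KO cell library than in WT cells. Of these genes Npnt alone is also lower in every KO tumour than in every WT tumour.

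Collagen IV alpha 1 and alpha 2, the chains of the common collagen IV network, were low in WT cells and lower in every KO cell library. Col4a1 was at 18.8 and 22.2 CPM in WT cells, at 0.401 and 0.782 CPM in KO1, at 0.575 and 0.487 CPM in KO2 and at 5.46 and 6.13 CPM in KO3. The groups did not overlap, and KO3 lay between WT and the other 2 KO lines. The WT mean was 34.7 times that of KO1, 38.6 times that of KO2 and 3.54 times that of KO3. KO1 and KO2 values rest on 8 to 21 counts a library. Col4a2 was at 15.4 and 16.5 CPM in WT cells, at 0.702 and 0.633 CPM in KO1, at 0.784 and 0.828 CPM in KO2 and at 3.68 and 5.26 CPM in KO3. Its order of the lines was that of Col4a1 as far as WT and KO3 go. KO1 and KO2 differed little.

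In tumours the pair was far higher in every library and the gap between KO and WT was small. Col4a1 was at 356, 276, 248 and 195 CPM in WT tumours, at 201, 268 and 225 CPM in KO1, at 164, 208 and 125 CPM in KO2 and at 259, 228 and 254 CPM in KO3. The groups overlapped: 2 of the 9 KO tumours, both KO2, lay below all WT tumours. Col4a1 did not pass between KO and WT tumours (log2 change -0.33 ± 0.17 (SE), adjusted p = 0.295, edgeR), and neither did Col4a2 (-0.37 ± 0.16, adjusted p = 0.229, edgeR). Col4a2 was at 223, 184, 147 and 128 CPM in WT tumours, at 112, 167 and 145 CPM in KO1, at 108, 133 and 83.8 CPM in KO2 and at 166, 132 and 151 CPM in KO3. Of the KO tumours 3 lay below all WT tumours. KO2 tumours had the lowest mean of both genes, 166 ± 41.2 CPM (SD, n = 3) for Col4a1 and 108 ± 24.6 CPM for Col4a2. The F test over the 3 KO lines passed for neither (adjusted p = 0.257 and 0.419, edgeR).

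WT tumours exceeded WT cells by 3.72 ± 0.26 on the log2 scale in Col4a1 and by 3.43 ± 0.24 in Col4a2. In all 4 tumours both genes were above both cell libraries. Markers of host cells moved with it. The summed level of 12 endothelial markers was 3.11 to 5.12 CPM in cells and 188 to 377 CPM in tumours, and Cdh5, Kdr, Tek, Emcn and Cldn5 had no counts in any cell library. That of 10 pericyte and smooth muscle markers was 0.471 to 1.41 CPM in cells and 90.0 to 295 CPM in tumours. Their part in the result was not tested, and in a bulk library fewer cells of a type and less RNA per cell cannot be told apart.

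**Figure D2:**
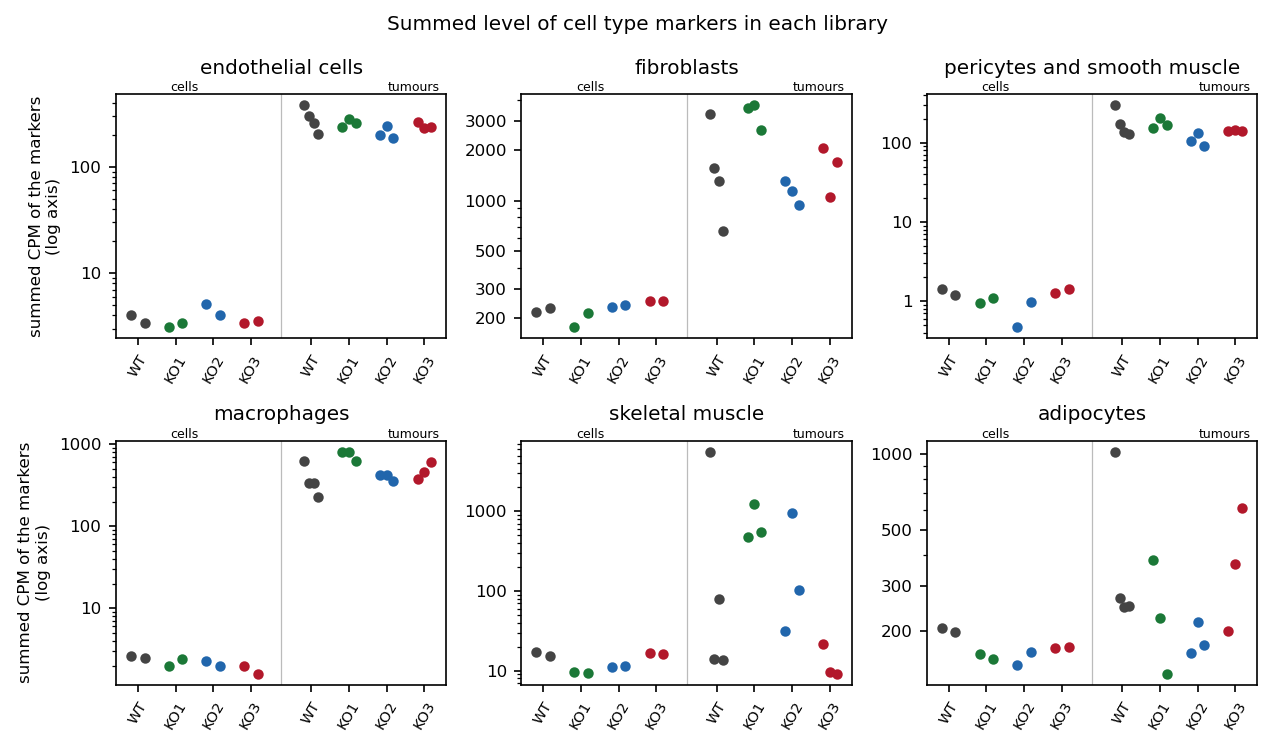
Summed CPM of marker genes (log axis) for 6 cell types in each library, by line, in cells on the left of each panel and in tumours on the right. Endothelial markers are at 3.11 to 5.12 CPM in every cell library and at 188 to 377 CPM in every tumour.

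The endothelial sum was 205 to 377 CPM in WT tumours, 234 to 282 in KO1, 188 to 239 in KO2 and 231 to 264 CPM in KO3. WT tumour 1 had the highest value of the endothelial sum, of Col4a1 and of Col4a2, and KO2 tumour 3 the lowest of all 3. With the endothelial and fibroblast scores as covariates the KO change was -0.24 ± 0.11 in Col4a1 and -0.25 ± 0.11 in Col4a2, against -0.33 and -0.37 without. The part of host cells in this was not tested. Over the libraries Col4a1 and Col4a2 went together (Pearson's r of log2 CPM 0.988 over 8 cell libraries and 0.974 over 13 tumours). This is a description: the libraries of a line share their cells, and the 2 genes share a start region. Per kilobase of exon, the ratio of Col4a1 to Col4a2 was 1.14 ± 0.0762 (SD, n = 2) in WT cells and 1.40 ± 0.0771 (SD, n = 4) in WT tumours.

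Col4a5, a chain of the collagen IV of specialised basement membranes and encoded on the X chromosome, took the opposite course between culture and tumour. It was at 107 and 110.4 CPM in WT cells, at 50.8 and 66.7 CPM in KO1, at 61.2 and 53.7 CPM in KO2 and at 85.6 and 94.0 CPM in KO3. Every KO cell library was below both WT libraries, with KO3 nearest to WT, and the WT mean was 1.59 times the KO mean. In tumours it was at 9.36 to 15.1 CPM in WT (median 11.1) and 9.55 to 12.6 CPM in KO (median 12.0). The ranges overlapped and the KO change was -0.01 ± 0.13 (adjusted p = 0.967, edgeR). Col4a5 was lower in WT tumours than in WT cells (log2 change -3.21 ± 0.19). Its correlation with Col4a1 was 0.982 over the 8 cell libraries and -0.165 over the 13 tumours, again as a description.

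Laminin alpha 5, which with beta and gamma chains makes the main laminin of mature epithelial and vessel basement membranes, was abundant in cells. Lama5 was at 803 and 909 CPM in WT cells, at 596 and 616 CPM in KO1, at 643 and 746 CPM in KO2 and at 929 and 985 CPM in KO3. KO1 and KO2 lay below both WT libraries and KO3 above both. In tumours it was at 196, 153, 157 and 141 CPM in WT, at 109.6, 160.0 and 163 CPM in KO1, at 178, 164 and 182 CPM in KO2 and at 219, 129 and 166 CPM in KO3. The lines overlapped, and the KO change was 0.01 ± 0.15 (adjusted p = 0.984, edgeR), a value whose sign turned in 14 of 26 other settings. Lama5 was lower in WT tumours than in WT cells (log2 change -2.39 ± 0.14).

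Lama3 and Lamb3 are the alpha and beta chains of laminin-332, the anchor of epithelial cells to the sheet. Lama3 was at 17.9 and 19.4 CPM in WT cells, at 25.5 and 25.4 CPM in KO1, at 28.2 and 29.1 CPM in KO2 and at 23.3 and 24.6 CPM in KO3. All 6 KO cell libraries were above both WT libraries. In tumours Lama3 was at 10.6 to 28.6 CPM in WT and 15.6 to 26.1 CPM in KO, with no KO tumour outside the WT range. The KO change there was 0.22 ± 0.21 (adjusted p = 0.581, edgeR). Between WT tumours and WT cells it was at -0.12 ± 0.36, and the cell libraries lay within the range of the tumours.

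Lamb3 was scarce and went its own way in each line. It was at 1.87 and 1.84 CPM in WT cells, at 2.61 and 2.87 CPM in KO1, at 0.366 and 0.536 CPM in KO2 and at 7.19 and 7.92 CPM in KO3. No line overlapped another, with KO2 lowest and KO3 highest, 4.07 times WT. In tumours the order of KO3 was not the same: Lamb3 was at 2.38, 0.478 and 0.783 CPM in KO3, at 1.98, 1.12 and 1.65 CPM in KO2, at 2.39, 3.38 and 6.75 CPM in KO1 and at 8.61, 2.26, 3.22 and 2.51 CPM in WT. All KO2 tumours and 2 KO3 tumours lay below all WT tumours, and WT tumour 1 was the highest. The KO change was -0.84 ± 0.54 (adjusted p = 0.411, edgeR) and the F test over the lines did not pass (adjusted p = 0.225, edgeR). Lamb3 in WT tumours was 1.16 ± 0.60 above WT cells on the log2 scale.

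**Figure D3:**
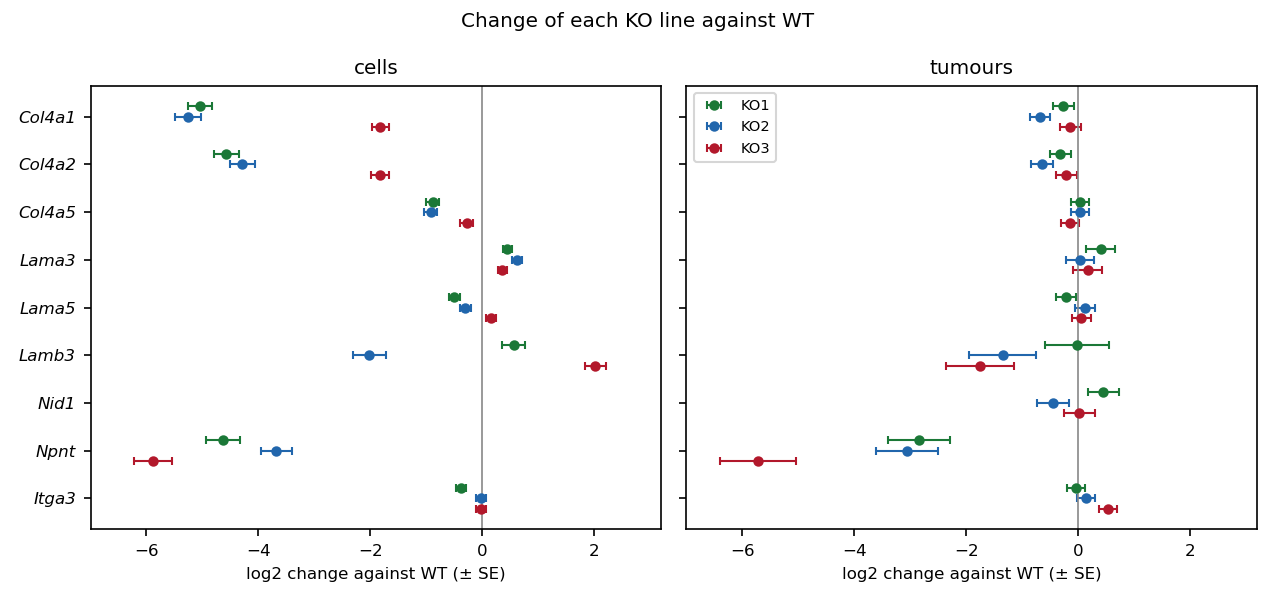
Fitted log2 change of each KO line against WT with its standard error, in cells (left) and in tumours (right). Nid1 has no point in cells because its counts were too low to be tested. Npnt is left of 0 in all 3 lines in both panels. Col4a1 spans -5.26 to -1.82 in cells and -0.68 to -0.14 in tumours.

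Nidogen 1 joins the laminin and collagen IV networks. It was close to silent in culture, with 0 to 10 counts a library: 0.234 and 0.262 CPM in WT cells, 0.151 and 0.223 CPM in KO1, 0 and 0.0487 CPM in KO2 and 0.260 and 0.381 CPM in KO3. It did not pass the filter on low counts there. The library with no counts allows up to 0.157 CPM (3 counts, counting error only), so that an order of the lines is not detectable at this depth. In tumours Nid1 was at 87.5, 50.4, 43.5 and 31.3 CPM in WT, at 100.6, 67.8 and 55.0 CPM in KO1, at 35.9, 46.9 and 32.5 CPM in KO2 and at 60.9, 44.5 and 58.3 CPM in KO3. By mean KO1 was highest and KO2 lowest, the lines overlapped, and all but KO1 tumour 1 lay within the WT range. The KO change was 0.07 ± 0.27 (adjusted p = 0.913, edgeR) and the lines did not differ past the threshold (adjusted p = 0.236, edgeR).

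WT tumours exceeded WT cells in Nid1 by 7.72 ± 0.60 on the log2 scale, the largest difference of the 9 genes, against only 10 counts in both WT cell libraries together. The summed level of 12 fibroblast markers ran beside it: 177 to 254 CPM in cells, 659 to 3273 CPM in WT tumours, 2640 to 3696 CPM in KO1, 947 to 1319 CPM in KO2 and 1048 to 2054 CPM in KO3. Col3a1, Lum, Dpt and Mfap5 had no counts in cells. Other markers of this list were present in culture. Col5a1 was at 151 to 229 CPM in cells and 66.5 to 166 CPM in tumours, and Pdgfra at 13.9 to 20.3 CPM and 10.9 to 53.9 CPM. The fibroblast sum and score are therefore not of host cells alone. With the endothelial and fibroblast scores as covariates the KO change of Nid1 was -0.09 ± 0.12 in place of 0.07 ± 0.27. The largest difference between KO lines was 0.26 in place of 0.90 on the log2 scale. The fibroblast sum itself differed between the lines, so line and host content cannot be told apart here, and a cause was not tested.

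Nephronectin was the gene among the 9 that set KO tumours apart from WT tumours. Npnt was at 7.64 and 7.40 CPM in WT cells, at 0.251 and 0.335 CPM in KO1, at 0.523 and 0.633 CPM in KO2 and at 0.173 and 0.0762 CPM in KO3. Each KO cell library was far below both WT libraries, and KO3 was the lowest line. The 6 KO cell libraries held 43 counts together and the 2 WT libraries 304. In tumours Npnt was at 6.19, 5.15, 6.26 and 8.54 CPM in WT, at 0.932, 1.05 and 0.837 CPM in KO1, at 0.567, 1.41 and 0.376 CPM in KO2 and at 0.251, 0 and 0.0978 CPM in KO3. All 9 KO tumours lay below all 4 WT tumours. The tumour with no counts allows up to 0.143 CPM.

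Npnt fell by 3.43 ± 0.58 on the log2 scale in KO tumours (adjusted p = 0.00728, edgeR), from 6.54 ± 1.43 CPM (SD, n = 4) to 0.613 ± 0.475 CPM (SD, n = 9). This was 1 of the 9 genes, where 3.65% of all genes tested passed and 2.37% passed lower in KO. The tumours come from the lines whose cells are taken to have chosen the genes, so this is no independent support. Without WT tumours 1 and 4 the change of Npnt was -3.25 and did not pass (adjusted p = 0.0606, edgeR). Over the 26 other settings the value ran from -3.95 to -2.95 and the adjusted p from 7.91e-07 to 0.689. In the fit by line, Npnt was lower than WT in each: -2.84 ± 0.56 in KO1, -3.06 ± 0.56 in KO2 and -5.72 ± 0.68 in KO3 (adjusted p = 0.00768, 0.00987 and 0.00190, edgeR). The 3 lines share the 4 WT tumours in these comparisons, where 10.6%, 3.04% and 1.24% of all genes passed. No other gene of the 9 passed in any line, Col4a1 in KO2 tumours coming nearest (-0.68 ± 0.19, adjusted p = 0.0734, edgeR). The KO3 value rests on 8 counts in 3 tumours and depends on the prior count of the fit. Between WT tumours and WT cells Npnt was at -0.19 ± 0.25, with means of 6.54 and 7.52 CPM.

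Host markers beside this result were as follows. By edgeR none of 12 endothelial, 12 fibroblast and 10 pericyte markers passed between KO and WT tumours, with 1, 0 and 2 at an unadjusted p under 0.05 and 1, 0 and 0 by DESeq2. Of 10 macrophage markers none passed by edgeR, with 4 at an unadjusted p under 0.05 and 3 by DESeq2, and a median log2 change of 0.39. Their sum was 228 to 624.6 CPM in WT tumours, 625.6 to 805 CPM in KO1, 353 to 418 CPM in KO2 and 380 to 610.3 CPM in KO3. Of 4 neutrophil markers tested 3 were lower in KO tumours by edgeR and 0 by DESeq2, and their sum was 287 CPM in WT tumour 1 but 4.86 to 7.52 CPM in the other WT tumours, against 4.27 to 8.89 CPM in KO. Of 5 T and NK cell markers 2 were higher by edgeR and 2 passed by DESeq2. With the endothelial and fibroblast scores as covariates the change of Npnt was -3.95 ± 0.67 and passed (adjusted p = 0.0110, edgeR), while the part of the other cell types was not tested.

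KO3 tumours were also lower in Npnt than KO1 and KO2 tumours, near the threshold. All 3 KO3 tumours lay below all 6 of the others, and the log2 change was -2.77 ± 0.64 (adjusted p = 0.0469, edgeR), 1 of the 9 genes where 1.88% of all genes passed, 0.697% lower. The call was lost in 15 of 21 other settings, where the adjusted p ran from 7.73e-04 to 0.235. Leaving out any 1 tumour but WT tumour 1 or KO3 tumour 1 ended it, with adjusted p of 0.0508 (without WT tumour 4) to 0.235 (without KO3 tumour 3). The F test over the 3 KO lines passed for none of the 9 genes, where 2.95% of all genes passed. For Npnt its adjusted p was 0.0719 (edgeR). At an unadjusted p under 0.05 that test counted 5 of the 9, but the share of all genes at that cut was not counted. By DESeq2, which called more of all genes than edgeR did, it called 2 of the 9, Npnt and Itga3.

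Integrin alpha 3 was the highest of the 9 genes in culture. Itga3 was at 2541 CPM in both WT cell libraries, at 1882 and 2012 CPM in KO1, at 2393 and 2610.3 CPM in KO2 and at 2466 and 2531 CPM in KO3. KO1 was lower than the rest, and KO2 spanned the WT level. In tumours Itga3 was at 146, 128, 126 and 110.3 CPM in WT, at 93.9, 128 and 163 CPM in KO1, at 146, 124 and 147 CPM in KO2 and at 196, 165 and 206 CPM in KO3. All 3 KO3 tumours lay above every other tumour. KO3 exceeded KO1 and KO2 by 0.49 ± 0.15 on the log2 scale and did not pass (adjusted p = 0.128, edgeR). The adjusted p of that difference ran from 0.0352 to 0.696 over 21 other settings. The KO change was 0.24 ± 0.17 (adjusted p = 0.441, edgeR). Itga3 was lower in WT tumours than in WT cells (log2 change -4.30 ± 0.13), the largest fall of the 9 genes.

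Levels can be compared between genes only per length, here CPM per kilobase of exon. In WT cells the order was Itga3 (445), Lama5 (75.2), Col4a5 (16.2), Col4a1 (2.75), Col4a2 (2.41), Lama3 (1.73), Npnt (1.5), Lamb3 (0.281) and Nid1 (0.0358), and no neighbours overlapped between the 2 libraries. In WT tumours Col4a1 came first (36.0 ± 9.02), before Col4a2 (25.8 ± 6.37), Itga3 (22.4 ± 2.52), Lama5 (14.2 ± 2.10) and Nid1 (7.66 ± 3.48), as SD over 4 tumours. Among these, Col4a1 overlapped Col4a2, Col4a2 overlapped Itga3, and Lama5 overlapped Nid1. Col4a5, Lama3, Npnt and Lamb3 followed between 1.74 and 0.628, each overlapping the next.

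The other proteins of the sheet were lower in KO cells where they passed. Of 32 listed genes 16 were tested in cells and 6 passed, all lower in KO, where 14.8% of all genes passed and 9.76% passed lower. Their median log2 change was -0.37, against 0.02 over all genes. The axon guidance protein netrin-1 (Ntn1), which is built like the short arm of a laminin, fell by 3.23 ± 0.47 in KO cells (adjusted p = 0.00211, edgeR). Laminin beta 2 (Lamb2) fell by 0.84 ± 0.14, from 426 CPM in WT cells to 204 CPM in KO1, 226 CPM in KO2 and 283 CPM in KO3 (adjusted p = 0.00379, edgeR). The collagen-binding protein Sparc fell by 0.56 ± 0.09 (adjusted p = 0.00434, edgeR). Lamc1, the gamma chain of most laminins, was not among the 6. Without WT cell library 2 the call of Lamb2 was lost (0.0640), and without either WT library that of Sparc (0.0656 and 0.0654), where over 17 other settings the adjusted p ran from 2.76e-07 to 0.0640 and from 4.05e-07 to 0.0656. The count of 6 was 1 without WT cell library 2, the lowest of 8 such fits, and 11 in another setting.

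The KO lines also differed among themselves in this list: 10 of 16 passed the F test over the 3 lines in cells, where 30.3% of all genes did. Agrn, the heparan sulphate proteoglycan agrin, averaged 203 CPM in KO1 cells, 247 CPM in KO2 and 470 CPM in KO3, with WT at 369 CPM (adjusted p = 3.21e-06, edgeR). Laminin beta 1 (Lamb1) was at 1.99, 0.556 and 3.59 CPM (adjusted p = 1.32e-04, edgeR), with KO2 lowest and KO3 highest. Fbln2, a fibulin of vessel walls, was at 13.5, 35.5 and 42.7 CPM (adjusted p = 3.37e-06, edgeR).

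In tumours 28 of the 32 were tested and 2 passed, both lower in KO, where 2.37% of all genes passed lower, with a median of 0.10 against 0.00173 over all genes. Ntn1 was at 6.29, 2.89, 2.51 and 5.88 CPM in WT tumours and 0.573 to 2.21 CPM in KO tumours. Every KO tumour was below the lowest WT tumour, and Ntn1 fell by 1.61 ± 0.33 (adjusted p = 0.0210, edgeR). Without WT tumours 1 and 4 its change was -0.93 and did not pass (adjusted p = 0.312, edgeR), and without either of them the adjusted p was 0.0501 and 0.0586. Over 26 other settings the adjusted p of Ntn1 ran from 4.00e-04 to 0.689. The count of 2 became 1 without WT tumours 1 and 4.

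**Figure D4:**
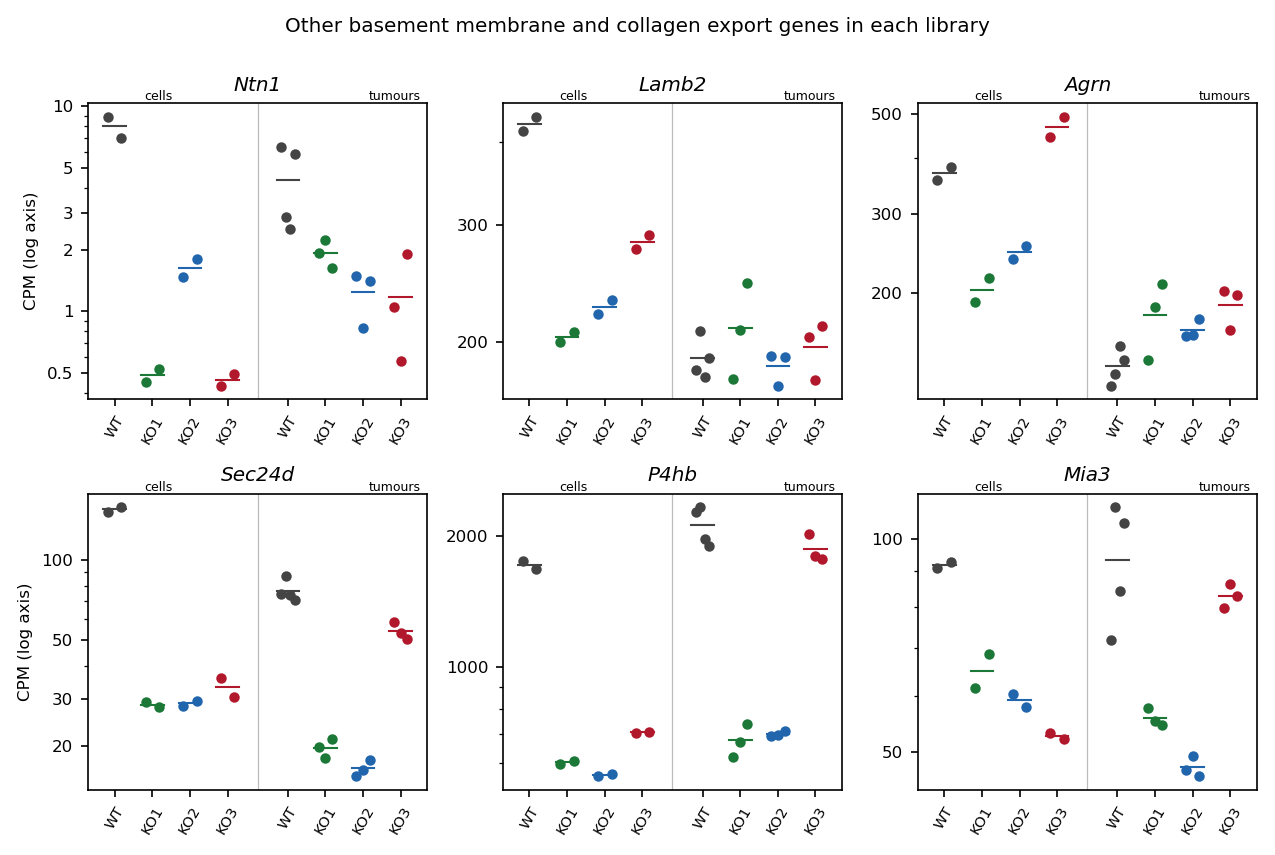
CPM (log axis) of 6 genes that are not among the 9, by line, in cells on the left of each panel and in tumours on the right. Points are libraries and lines are group means. Ntn1 is lower in every KO tumour than in every WT tumour, and Sec24d, P4hb and Mia3 are higher in KO3 tumours than in KO1 and KO2 tumours.

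Among KO lines in tumours, 3 of the 28 passed the F test. Col15a1, a collagen of vessel and muscle basement membranes, had no counts in cells and was at 105 ± 22.9 CPM in KO1 tumours, 43.7 ± 1.86 CPM in KO2 and 60.7 ± 5.47 CPM in KO3 (SD, n = 3; adjusted p = 0.00236, edgeR). Frem1 was at 7.82, 3.14 and 2.16 CPM and Lamc3 at 1.13, 0.335 and 0.245 CPM in the means of KO1, KO2 and KO3. Both lost the call in some settings, Lamc3 in 9 of 20 (adjusted p from 0.00296 to 0.282) and Frem1 in 12 of 20 (3.10e-04 to 0.749), among them leaving out any 1 KO3 tumour or KO1 tumour 2 or 3. The count of 3 ran from 1 to 6 as single tumours were left out. Fibroblast markers were also highest in KO1 tumours, at 2640 to 3696 CPM, and their part in this was not tested. Between WT tumours and WT cells 26 were tested, of which 13 were higher and 6 lower in tumours, where 51.0% of all genes passed, 29.8% higher and 21.3% lower. Col15a1, Col18a1 and Nid2 were among those higher, and Tinagl1, Agrn and Papln among those lower.

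Of 22 other receptors of the sheet, 17 were tested in cells, and 4 were lower and 1 higher in KO, where 14.8% of all genes passed and 9.76% passed lower. The higher was Itga5, a fibronectin receptor chain (log2 change 0.57 ± 0.16, adjusted p = 0.0392, edgeR). The integrin beta chains Itgb5 (-0.99 ± 0.12, adjusted p = 8.57e-04, edgeR) and Itgb3 (-0.37 ± 0.06, adjusted p = 0.00366, edgeR) were lower, as were Cd151, a tetraspanin that holds to integrin alpha 3 (-0.41 ± 0.10, adjusted p = 0.0198, edgeR), and the dystroglycan gene Dag1 (-0.55 ± 0.15, adjusted p = 0.0360, edgeR). Leaving out either WT cell library ended the calls of Itga5, Itgb3, Cd151 and Dag1, with adjusted p of 0.0511 to 0.260, and the count of 5 became 1. Over 17 other settings the largest adjusted p was 0.260 for Itga5, 0.0776 for Itgb3, 0.236 for Cd151 and 0.241 for Dag1. Itgb1, the partner of integrin alpha 3, was at -0.42 ± 0.17 and did not pass (adjusted p = 0.127, edgeR). Without line KO3 it was at -0.62 and passed (adjusted p = 1.27e-04, edgeR). Its adjusted p ran from 1.27e-04 to 0.416 over 17 other settings. In tumours none of 20 passed between KO and WT by edgeR, with 3 at an unadjusted p under 0.05 and none by DESeq2. Their median was -0.16.

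Collagen chains are hydroxylated and folded in the endoplasmic reticulum and leave it in COPII vesicles. Of 27 genes of these steps 21 were tested in cells and 12 passed, all lower in KO, where 14.8% of all genes passed and 9.76% passed lower, with a median of -0.49 against 0.02 over all genes. The COPII cargo adaptor Sec24d was at 151 and 157 CPM in WT cells and at 28.0 to 36.1 CPM in the 6 KO libraries. It fell by 2.35 ± 0.09 (adjusted p = 1.59e-06, edgeR). P4hb, the protein disulfide isomerase that is also the beta subunit of prolyl 4-hydroxylase, fell by 1.46 ± 0.11 (adjusted p = 3.17e-05, edgeR), and the COPII coat gene Sec31a by 0.73 ± 0.07 (adjusted p = 2.08e-04, edgeR). These 3 calls held in all 17 other settings, while the count of 12 was 5 without WT cell library 2. In tumours 1 of 27 passed between KO and WT, a share near the 3.65% of all genes. This test takes the 3 KO lines together, though they differed. P4hb did not pass, with means of 2118 CPM in WT tumours, 678 in KO1, 701 in KO2 and 1866 CPM in KO3. Mia3, a collagen cargo receptor gene, did not pass either, at 93.2, 55.9, 47.6 and 83.0 CPM in the same order. The gene that passed was Sec24d, at -1.36 ± 0.35 (adjusted p = 0.0465, edgeR). That call was lost in 19 of 26 other settings (adjusted p from 5.39e-07 to 0.720), among them leaving out WT tumours 1 and 4 (0.205) or any 1 WT, KO1 or KO2 tumour (0.0676 to 0.132).

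Within tumours KO3 stood apart from KO1 and KO2 in the same list. Of the 27, 4 were higher in KO3 and none lower, where 1.19% of all genes passed higher. Sec24d was at 58.6, 53.2 and 50.5 CPM in KO3 tumours and at 15.5 to 21.2 CPM in the 6 KO1 and KO2 tumours, with WT tumours at 70.9 to 86.7 CPM. KO3 exceeded KO1 and KO2 by 1.58 ± 0.09 in Sec24d (adjusted p = 3.41e-06, edgeR), by 1.43 ± 0.09 in P4hb (adjusted p = 7.84e-06, edgeR) and by 0.68 ± 0.13 in the collagen cargo receptor gene Mia3 (adjusted p = 0.0171, edgeR). The other was the COPII coat gene Sec23a (0.46 ± 0.10, adjusted p = 0.0413, edgeR), named after its values were seen, whose call was lost in 15 of 21 other settings (adjusted p from 0.00166 to 0.228). The count of 4 was 2 at the lowest, without KO3 tumour 2 or 3 among others, and 7 without WT tumours 1 and 4. In KO3 cells Sec24d was at 36.1 and 30.6 CPM, beside 28.0 to 29.7 CPM in KO1 and KO2 cells. The Mia3 call was lost in 8 of 21 other settings (adjusted p from 8.48e-05 to 0.111), among them leaving out KO1 tumour 2 or 3, KO2 tumour 1 or 3, or KO3 tumour 2 or 3, and those of Sec24d and P4hb in none.

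Of 22 proteases and inhibitors of turnover, 12 were tested in cells and 2 passed, both lower in KO. This share is near the 14.8% of all genes that passed. These were Htra1 (-0.61 ± 0.11, adjusted p = 0.00507, edgeR) and Adamts1 (-1.12 ± 0.23, adjusted p = 0.0107, edgeR), both secreted proteases. Without either WT cell library neither passed (adjusted p from 0.0648 to 0.107). Over 17 other settings the largest adjusted p was 0.0865 for Htra1 and 0.107 for Adamts1. In tumours none of 19 passed between KO and WT by edgeR, with 5 at an unadjusted p under 0.05 and 1 by DESeq2. TGF-beta is a growth factor that raises matrix production. Its list of 18 genes holds its ligands and a receptor beside genes that it is known to regulate. In cells 14 were tested and 2 passed, again near the 14.8% of all genes. They were the receptor gene Tgfbr1 (0.43 ± 0.09, adjusted p = 0.0134, edgeR) and the inhibitor Smad7 (0.37 ± 0.11, adjusted p = 0.0440, edgeR), both higher. Neither passed without either WT cell library (adjusted p from 0.0621 to 0.303), and Smad7 lost its call in 11 of 17 other settings. The largest adjusted p was 0.201 for Tgfbr1 and 0.303 for Smad7. In tumours 2 of 18 passed, where 3.65% of all genes did, the ligand genes Tgfb2 (-0.82 ± 0.20, adjusted p = 0.0385, edgeR) and Tgfb3 (-0.57 ± 0.14, adjusted p = 0.0432, edgeR), both lower. Leaving out WT tumours 1 and 4 ended both calls (adjusted p = 0.193 and 0.248, edgeR), as did leaving out WT tumour 2, 3 or 4 alone. The calls were lost in 13 and 16 of 26 other settings, where the adjusted p ran from 0.00260 to 0.716 for Tgfb2 and from 0.00500 to 0.716 for Tgfb3.

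The genes most like Col4a1 over the 8 cell libraries, among 9350 with a mean of at least 4 CPM, were Wsb2 (Pearson's r of log2 CPM 0.997), the collagen galactosyltransferase gene Colgalt1 (0.997), Tgtp1 (0.996), Dag1 (0.995) and Lamp1 (0.995). Each was highest in WT, then in KO3, and lower in KO1 and KO2: Colgalt1 was at 194, 163, 115 and 112 CPM in WT, KO3, KO1 and KO2. The genes most like Lamb3 were Saal1 (0.984), Ttc27 (0.977), Ghr (0.977), Gstt3 (0.975) and Nipsnap1 (0.971). Ghr, the growth hormone receptor gene, was at 4.80, 4.95, 2.57 and 8.12 CPM in WT, KO1, KO2 and KO3. With 8 libraries of 4 lines many genes reach such values, and over the 4 line means none of the 10 stayed among the nearest 5.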

How the data were processed

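Libraries of polyadenylated RNA (stranded kit, paired reads of 50 bases, per the labels' protocols) gave gene-level estimated counts, as deposited by the authors. In a library 7.96% to 10.2% of these values were not whole. A deposited table of estimated counts scaled by transcript length was used as an alternative. The submitters' processing notes name Salmon 1.5.2, STAR, Trim Galore 0.6.7 and GRCm38. Whether counting used strand is not given, so that reads in the overlap of Col4a1 and Col4a2 may be shared between both.

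Estimated counts were rounded and genes of low count removed (filterByExpr). With TMM factors, edgeR 4.0.16 (R 4.3.3) ran its quasi-likelihood F test on the 8 cell libraries (12254 genes tested), the 13 tumours (14200 by genotype, 14483 by line) or the 6 WT libraries (14031). P-values were adjusted over all genes tested (Benjamini-Hochberg, threshold 0.05). CPM used TMM factors from all libraries together, with a prior count of 2 on the log2 scale. A count of 0 was taken to allow up to 3 counts. Gene positions and exon lengths are GENCODE's for GRCm38. A host score is the log2 CPM averaged over that cell type's markers.

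The 9 genes, the gene lists and the comparison of KO3 with KO1 and KO2 tumours were chosen with earlier results of these data known. The 3 genes of smallest p in each direction were named from each list, and beside them Lamc1, Itgb1, Dag1 and Sec23a. A few genes of the lists are not reported here, though the counts of each list include them. Nothing used here says that libraries of a line were separate cultures, so p-values measure only the spread between libraries, which may be technical. Every pair of replicates differed beyond sampling noise (lowest chi-square per degree of freedom 7.98). Alternatives were RLE scaling, no filter, the length-scaled table, DESeq2 1.42.0, the replicate number as a block, lines as groups, each library or KO line left out, libraries summed per line, a sum of WT tumours 3 and 4 (which carry the same number in their descriptions), and host scores as covariates. Leaving out WT tumours 1 and 4 together was added after seeing the data. The fits were tested on simulated data. Figures were drawn with matplotlib 3.10.9.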

Additional observations from a re-analysis of the deposited data

Results flagged for a closer look

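Lamb3, the beta chain of laminin-332, stood out in single tumours. WT tumour 1 was at 8.61 CPM, and its distance from the next WT tumour was 0.849 of the range of the 4. KO1 tumour 3 was at 6.75 CPM, and its distance from the next of the 9 KO tumours was 0.537 of their range. The 9 genes gave 27 groups that were checked in this way, of which these 2 were far from the others. Chance gives such a sample in about 1 in 20 groups if the values of a group follow a single normal distribution. The KO tumours pool 3 lines with Lamb3 means of 4.17 CPM in KO1, 1.58 CPM in KO2 and 1.21 CPM in KO3. That rate need not hold for them. WT tumour 1 also had the highest muscle and neutrophil marker sums of all tumours, and the part of other cells in its Lamb3 level was not tested.

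For Npnt KO3 tumours were at -2.77 on the log2 scale relative to KO1 and KO2 (adjusted p = 0.0469, edgeR). That value rests on 8 counts in the 3 KO3 tumours, and its call was lost in 15 of 21 other settings. The F test over the 3 KO lines did not pass (adjusted p = 0.0719, edgeR).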

How the results depend on the processing

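The call of Npnt between KO and WT tumours held in 24 of 26 other settings. Of the 9 genes, 0 passed in that comparison with libraries summed per line (where 0 of 16638 genes passed by edgeR, with 1134 at an unadjusted p under 0.05) and 0 without WT tumours 1 and 4.

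Counts of all genes depended on the setting, and the cause was not tested. For KO against WT in cells the count of 1808 became 4780 with lines as groups, 1162, 1137 and 4315 without KO1, KO2 and KO3, and 378 to 2221 as single libraries were left out. For the KO lines in cells 3713 became 2271 with the length-scaled table and 2094 to 4247 without single libraries. For KO against WT in tumours 518 became 332 with no filter, 1088 by DESeq2, 1118 with lines as groups, 297 and 123 without KO1 and KO2, 246 with WT tumours 3 and 4 summed, 260 with host scores as covariates, 89 without WT tumours 1 and 4, and 154 to 594 without single tumours. For the KO lines in tumours 427 became 1263 by DESeq2, 32 with host scores and 128 to 1095 without single tumours, and of the 9 genes 2 passed by DESeq2 and 0 to 1 without single tumours. For KO3 against KO1 and KO2, 273 became 640 by DESeq2, 27 with host scores, 554 without WT tumours 1 and 4 and 71 to 524 without single tumours. Of the 9 genes 2 passed there by DESeq2, 0 with the length-scaled table, with WT tumours 3 and 4 summed or with host scores, and 0 to 1 without single tumours. Between WT tumours and WT cells 7159 became 3853 to 8115 without single libraries, where a lone WT cell library is assumed to vary like the other group.

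No pairing by replicate number was seen. Deviations of libraries with the same number correlated at -0.0517 to 0.150 over 12 pairs in cells and -0.394 to 0.163 over 18 pairs in tumours. Of the libraries, 4 of 8 and 0 of 13 correlated best with their own number. In cells the 2 libraries of a line deviate by equal and opposite amounts, so the 12 pairs and 8 libraries repeat values and are not independent. With the number as a block, 98 genes passed between KO and WT tumours, and of the 9 genes 0 passed between KO3 and the other KO lines.

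Some changes turned direction. None of them had passed between tumours, and the largest in size was Col4a2 between KO3 and the other KO lines, at 0.27 ± 0.18. Between KO and WT tumours Col4a5 was at 0.062 with the length-scaled table, 0.16 with the replicate block, 0.029 without KO3, 0.062 with libraries summed per line, 0.033 with WT tumours 3 and 4 summed, 0.23 without WT tumours 1 and 4 and -0.10 to 0.15 without single tumours. Lama5 was at -0.0041 with RLE scaling and by DESeq2, -0.085 with the length-scaled table, -0.033 with the block, -0.0089 with lines as groups, -0.066 without KO2, -0.042 without KO3, -0.027 with WT tumours 3 and 4 summed and -0.055 to 0.073 without single tumours. Nid1 was at -0.069 with the block, -0.20 without KO1, -0.070 with WT tumours 3 and 4 summed, -0.091 with host scores and -0.12 to 0.36 without single tumours. Between KO3 and the other KO lines Col4a2 was at -0.0041 with host scores and Lama3 at 0.019 with the length-scaled table. Without single tumours Lama3 ran there from -0.24 to 0.087, Lama5 from -0.13 to 0.27 and Nid1 from -0.081 to 0.15. Between WT tumours and WT cells Lama3 was at 0.47 with the length-scaled table and -0.46 to 0.038 without single libraries.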
